A study of Homo sapiens with 2 samples.

Results

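Focal adhesions are the sites where integrins, the receptors for extracellular matrix, are tied to actin filaments inside the cell. The genes followed here encode 10 cytoplasmic proteins that make this link: the kindlins FERMT1 and FERMT2, talin 1 (TLN1), vinculin (VCL), zyxin (ZYX), paxillin (PXN), focal adhesion kinase (PTK2), integrin-linked kinase (ILK), alpha-parvin (PARVA) and PINCH-1 (LIMS1). They were taken by gene symbol, and all 10 were found on 1 row in each count file, out of 24462 distinct symbols. Symbols were compared where the mean of the control and ADGRF4 siRNA counts reached 30. All 10 genes and 11771 symbols in all passed that limit.

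Talin and the kindlins bind the cytoplasmic tail of integrin beta chains and switch the receptor to its active state. Talin under load recruits vinculin, which binds actin. Integrin-linked kinase, PINCH and parvin form a stable ternary complex that kindlin brings to the integrin, while paxillin and focal adhesion kinase form the signalling layer and zyxin gathers at the actin-rich end of mature adhesions. In epithelial cells FERMT1 is the characteristic kindlin, FERMT2 is found in most adherent tissues, and FERMT3 belongs to blood cells and platelets.

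The study silenced ADGRF4, an adhesion G protein-coupled receptor, with siRNA in A549, an established human lung adenocarcinoma cell line grown in DMEM with 10% fetal bovine serum, to ask how gene expression responds. One library came from cells given control siRNAs and the other from cells given ADGRF4 siRNAs; both came from the same line, and the siRNA sequences, dose and time after transfection are not stated in the labels. The Lexogen QuantSeq kit used for both libraries reads mainly the 3' end of polyadenylated transcripts. The libraries held 10396047 counts (control) and 9825320 counts (ADGRF4 siRNA). With 1 library per treatment, differences have no replicate check and no p-value, and the ranges in parentheses are exact 95% intervals that cover counting error only.

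ADGRF4 had 3 counts (0.619 to 8.77) in the control and 1 count (0.0253 to 5.57) in the ADGRF4 siRNA library, so its silencing could not be checked at this depth. The 9 markers fixed for A549 and epithelium were all read, with a summed level of 12728 CPM (counts divided by the library size scaled by trimmed mean of M values) in the control and 13137 in the ADGRF4 siRNA library. The largest part of that sum is the keratin KRT18 (5389 and 8505 CPM), and single markers moved. Of the 9, 6 lay past 1.5-fold on the lower side and 2 on the higher side, beside 22.3% and 21.1% of all compared symbols. After centring on 3' GC content, described below, 5 were lower and 1 higher, beside 19.2% and 15.1%. CDH1, the epithelial cadherin, was 4.34-fold lower (3.78 to 5.01), AKR1B10, an aldo-keto reductase, 4.86-fold lower (4.63 to 5.11) and KRT7, another keratin, 2.66-fold higher (2.59 to 2.74); the part of this in the adaptor values was not tested. Markers of other cell types were near 0: the summed CPM was 4.57 and 6.11 for fibroblast genes, 0.00 and 0.321 for endothelial genes, 5.30 and 4.50 for leukocyte genes and 3.198 and 1.39 for platelet genes. LUM, PDGFRB, VWF, KDR and CD3E had no count in either library.

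The 10 adaptor genes did not differ in one direction. On the log2 scale with 1 CPM added, 3 were at least 1.5-fold lower after ADGRF4 siRNA (FERMT2, PXN and FERMT1), 1 was at least 1.5-fold higher (ILK) and 6 lay between (TLN1, PARVA, VCL, LIMS1, ZYX and PTK2). Over all 11771 compared symbols, 22.3% were at least 1.5-fold lower and 21.1% at least 1.5-fold higher, so counts of 3 and 1 among 10 genes lie near that background. At 2-fold, 1 adaptor gene was lower and 0 were higher, beside 10.4% lower and 7.84% higher among all compared symbols. The median log2 ratio of the 10 was -0.18, against -0.016 for all compared symbols. With total-count scaling the background moved to 27.7% lower and 16.1% higher, with a median of -0.16, and each of the 10 genes stayed on its side of the 1.5-fold limits.

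**Figure D1:**
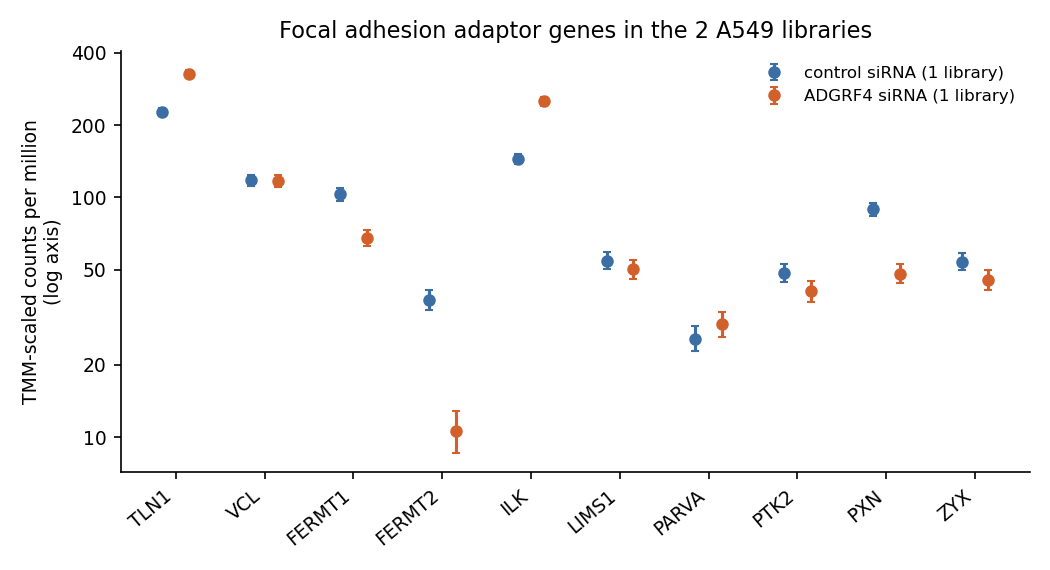
Level of each adaptor gene in the control siRNA library (blue) and the ADGRF4 siRNA library (orange), in scaled CPM on a log axis; bars are exact 95% Poisson intervals of the count. FERMT2, FERMT1 and PXN lie lower and ILK and TLN1 higher in the ADGRF4 siRNA library without overlap of the bars, and the VCL points are level at 118 and 117 CPM.

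The ratio of a gene moved with the base composition of its 3' end in these libraries. For the last 300 bases of the longest annotated transcript, the 576 symbols with a median GC content of 25.7% had a median log2 ratio of -0.35, and the 575 with a median of 63.3% had 0.84. The adaptor genes span most of that range, from 31.3% GC for FERMT1 and VCL to 61.0% for ZYX, and their ratios were therefore also set against symbols of like GC content. After centring each ratio on the median of its GC class, 3 adaptor genes were at least 1.5-fold lower (FERMT2, ZYX and PXN) and 0 were higher, where 19.2% of all centred symbols were lower and 15.1% higher. Centring ended the calls of FERMT1 and ILK and brought ZYX past the limit.

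**Figure D2:**
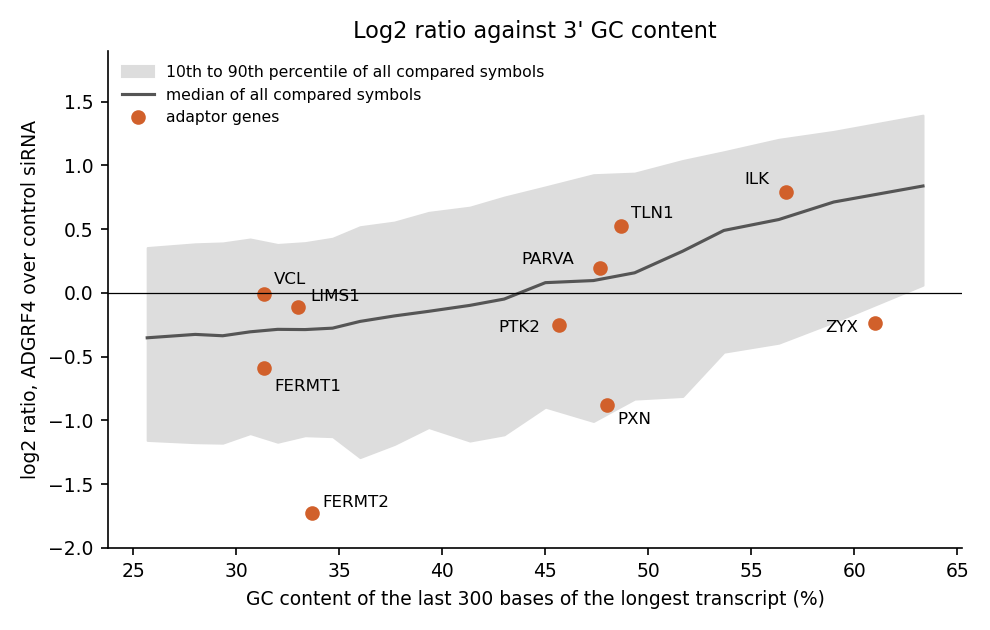
Log2 ratio (ADGRF4 siRNA over control siRNA) of the 10 adaptor genes (orange points) against the GC content of their 3' ends; the line is the median and the grey band the 10th to 90th percentile of all compared symbols in 20 GC classes. ILK, TLN1, PARVA, VCL and LIMS1 lie above the line at their GC content, and FERMT2 and ZYX fall below the band.

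The kindlins were lower after ADGRF4 siRNA, FERMT2 by more than FERMT1 (counts are given with the control first). FERMT2, which encodes kindlin-2, had 410 against 99 counts, or 37.5 and 10.6 CPM. It was 3.53-fold lower (2.83 to 4.44), and 2.36% of all compared symbols had a lower ratio. Among the 576 symbols of like 3' GC content 2.95% lay lower, and the centred log2 ratio was -1.44. FERMT1, which encodes kindlin-1, had 1125 against 633 counts and was 1.52-fold lower (1.37 to 1.67). This lies just past the limit: 32.5% of symbols of like GC content had a lower ratio, and the centred value was -0.29. FERMT3, the kindlin of blood cells, is not among the 10 genes and had 67 against 6 counts, 9.52-fold lower (4.15 to 26.9). All 3 kindlins were thus lower, by unequal amounts.

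The change in balance between kindlins needs no scaling between libraries, since both genes are counted in the same one. FERMT1 made up 70.2% (67.9 to 72.5) of all kindlin counts in the control and 85.8% (83.0 to 88.2) after ADGRF4 siRNA, while the share of FERMT2 was 25.6% (23.5 to 27.8) and 13.4% (11.0 to 16.1). The ratio of FERMT1 to FERMT2 was 2.33 times as high (1.82 to 2.99) in the ADGRF4 siRNA library. The 3' ends of their longest transcripts have similar GC content, 31.3% and 33.7%. Over the coding transcripts it runs from 31.3% to 50.7% for FERMT1 and from 28.7% to 44.0% for FERMT2. Which end was read was not tested.

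Promoter windows are shown for FERMT2 and PXN, 2 of the genes with lower counts, and ILK, the gene at least 1.5-fold higher, because these carry the largest differences among the genes with a window. They are RefSeq sequences on GRCh38.p14, 250 bases up to the gene start, written 5′ to 3′ on the strand of the gene, with GC boxes (GGGCGG or its reverse complement CCGCCC) in capitals; the counts themselves were made on hg19. The bases that follow the gene start were found in an annotated GENCODE 29 transcript for FERMT2 and PXN and not for ILK, so the start used for ILK was not matched there. FERMT2 is on the minus strand at chr14:52951051-52951300, PXN on the minus strand at chr12:120265731-120265980 (the first of 2 windows) and ILK on the plus strand at chr11:6603524-6603773.
FERMT2: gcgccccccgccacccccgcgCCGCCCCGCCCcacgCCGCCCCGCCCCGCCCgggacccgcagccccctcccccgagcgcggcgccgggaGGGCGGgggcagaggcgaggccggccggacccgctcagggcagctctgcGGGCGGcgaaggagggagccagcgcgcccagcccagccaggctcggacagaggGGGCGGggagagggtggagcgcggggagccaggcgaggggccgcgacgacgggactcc
PXN: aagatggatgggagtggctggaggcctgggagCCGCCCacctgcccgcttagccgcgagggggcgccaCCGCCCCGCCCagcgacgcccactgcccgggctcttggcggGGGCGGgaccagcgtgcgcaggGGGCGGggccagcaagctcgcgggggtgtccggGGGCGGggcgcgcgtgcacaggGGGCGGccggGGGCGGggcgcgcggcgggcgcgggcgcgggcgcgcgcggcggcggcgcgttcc
ILK: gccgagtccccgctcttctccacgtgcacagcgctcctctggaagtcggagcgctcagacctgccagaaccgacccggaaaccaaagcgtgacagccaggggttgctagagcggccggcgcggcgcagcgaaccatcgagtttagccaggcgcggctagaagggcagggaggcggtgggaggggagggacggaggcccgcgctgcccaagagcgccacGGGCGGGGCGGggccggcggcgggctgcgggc

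The windows of FERMT2 and PXN each hold 8 GC boxes, counting overlaps, and that of ILK holds 2, with GC contents of 84.4%, 83.6% and 72.8% against a median of 58.0% over all 35116 windows of this length. The first window of LIMS1, whose interval includes 1, holds 7 at 84.0% GC, and the second PXN window holds 0 at 53.6% GC. VCL holds 3 GC boxes, TLN1 holds 1 and ZYX holds 5. Whether the number of boxes goes with the ratio was not tested. At least 1 GC box was present in 7 of the 11 windows of adaptor genes and in 42.6% of all windows. The TEAD motif GGAATG, on either strand, was present in 2 of the 11 (VCL and the second PXN window) and in 11.9% of all windows. The AP-1 motif TGANTCA was present in 1 (the second of 4 LIMS1 windows) and in 6.57% of all, and the CArG box, the motif of serum response factor, in 0 and in 1.16% of all. Windows were matched for 7 of the 10 genes; FERMT1, PTK2 and PARVA were not matched.

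Talin and vinculin, which couple integrins to actin, differed in their uncentred ratios but lay close together after centring with the longest transcripts. TLN1 had 2493 against 3062 counts, 228 and 328 CPM, and was 1.44-fold higher (1.37 to 1.52), short of the 1.5-fold limit. Among 576 symbols of like GC content 69.4% lay lower, and the centred log2 ratio was 0.37. VCL had 1289 against 1092 counts, and its fold was 0.994 (0.916 to 1.08), an interval that includes 1; the centred log2 ratio was 0.28. The ratio of TLN1 to VCL was 1.45 times as high (1.315 to 1.598) after ADGRF4 siRNA, and their 3' ends differ in GC content, 48.7% and 31.3%. TLN2, the second talin, had 413 against 342 counts and a fold of 0.971 (0.839 to 1.12), so the share of TLN1 in talin counts was 85.8% (84.5 to 87.0) in the control and 89.95% (88.9 to 90.9) after ADGRF4 siRNA. Alpha-catenin (CTNNA1), the relative of vinculin at cell-cell junctions, had 924 against 624 counts and was 1.26-fold lower (1.14 to 1.40). Its centred log2 ratio was -0.044.

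Of the complex of ILK, PINCH and parvin, ILK alone passed the limit. ILK, a pseudokinase that acts as a scaffold, had 1584 against 2345 counts, 145 and 251 CPM, and was 1.74-fold higher (1.63 to 1.85). Its 3' end has 56.7% GC, and 49.5% of the 576 symbols of like GC content were also at least 1.5-fold higher, so the centred log2 ratio was 0.22. The last exon of ILK is overlapped on the other strand by TAF10, a subunit of the general transcription factor TFIID, which had 1927 against 2612 counts and was 1.59-fold higher (1.498 to 1.69). The strand setting of the counting is not known here, and without strand the reads of ILK and TAF10 cannot be told apart. LIMS1, an adaptor made of LIM domains, had 595 against 468 counts, with a fold of 0.923 (0.816 to 1.04). PARVA, which binds actin, had 282 against 276 counts, with a fold of 1.15 (0.969 to 1.36). The intervals of LIMS1 and PARVA include 1.

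Relative to its partners, ILK was higher before centring on GC content. With the longest transcripts, the centred log2 ratios of ILK, LIMS1 and PARVA lie close together, at 0.22, 0.17 and 0.095. At the coding transcripts of lowest and highest 3' GC content, ILK had 0.22 and 0.079. LIMS1 had 0.22 and -0.60 there, and PARVA 0.42 and 0.034. Which end was read was not tested. The ratio of ILK to LIMS1 was 1.88 times as high (1.64 to 2.16) and that of ILK to PARVA 1.51 times as high (1.26 to 1.81) in the ADGRF4 siRNA library, beside 3' GC contents of 56.7%, 33.0% and 47.7%. The ratio of PARVA to LIMS1 was 1.24 times as high (1.01 to 1.54). The balance of alpha-parvin and beta-parvin differed by less than the counting error: PARVA made up 45.2% (41.2 to 49.2) of parvin counts in the control and 43.8% (39.9 to 47.8) after ADGRF4 siRNA, PARVB had 342 against 354 counts, and PARVG had 0 in each library, which allows a share of up to 0.481% and 0.476% (3 counts of the total). LIMS2, the second PINCH, had 19 against 35 counts, under the limit, and its share of PINCH counts was 3.09% (1.87 to 4.79) and 6.96% (4.89 to 9.54). The 3' ends of LIMS2 and LIMS1 differ in GC content, 62.7% and 33.0%, and the part of this in the share was not tested. LIMS3, a related copy that can share reads with LIMS1, had 29 against 25 counts.

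In the signalling layer, paxillin was lower past the 1.5-fold limit, and focal adhesion kinase was lower but short of it. PXN had 978 against 449 counts, 89.3 and 48.1 CPM, and was 1.86-fold lower (1.66 to 2.08). Among 576 symbols of like 3' GC content 12.3% lay lower, and the centred log2 ratio was -0.98, so this difference was about as large after centring on the longest transcript. The last exon of PXN is overlapped on the other strand by PXN-AS1, which had 29 counts in the control and 1 count after ADGRF4 siRNA; its part in the PXN value was not tested. PTK2 had 531 against 378 counts and was 1.20-fold lower (1.05 to 1.37), with a centred value of -0.34. The ratio of PXN to PTK2 was 1.55 times lower (1.30 to 1.85) after ADGRF4 siRNA.

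The balance between these genes and their paralogs also differed between the libraries. PTK2B, which encodes the second kinase of the family (PYK2), had 410 against 542 counts and was 1.55-fold higher (1.36 to 1.77), with a centred log2 ratio of 0.54, under the limit. The share of PTK2 in the counts of the pair was 56.4% (53.2 to 59.6) in the control and 41.1% (37.9 to 44.3) after ADGRF4 siRNA, so the more counted of the pair changed from PTK2 to PTK2B. The ratio of PTK2 to PTK2B was 1.86 times lower (1.54 to 2.24), and the 3' ends of their longest transcripts have similar GC content, 45.7% and 44.7%. Over the coding transcripts of PTK2 it runs from 31.7% to 54.3%, and which end was read was not tested. TGFB1I1, which encodes the paxillin relative Hic-5, had 216 against 253 counts and was 1.37-fold higher (1.14 to 1.66), short of the limit, and its sign turned on centring (-0.27, at 59.0% GC). LPXN, leupaxin, had 54 against 27 counts and was 1.71-fold lower (1.055 to 2.82), or -0.43 after centring. PXN made up 78.4% (76.0 to 80.6) of paxillin family counts in the control and 61.6% (58.0 to 65.1) after ADGRF4 siRNA.

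**Figure D3:**
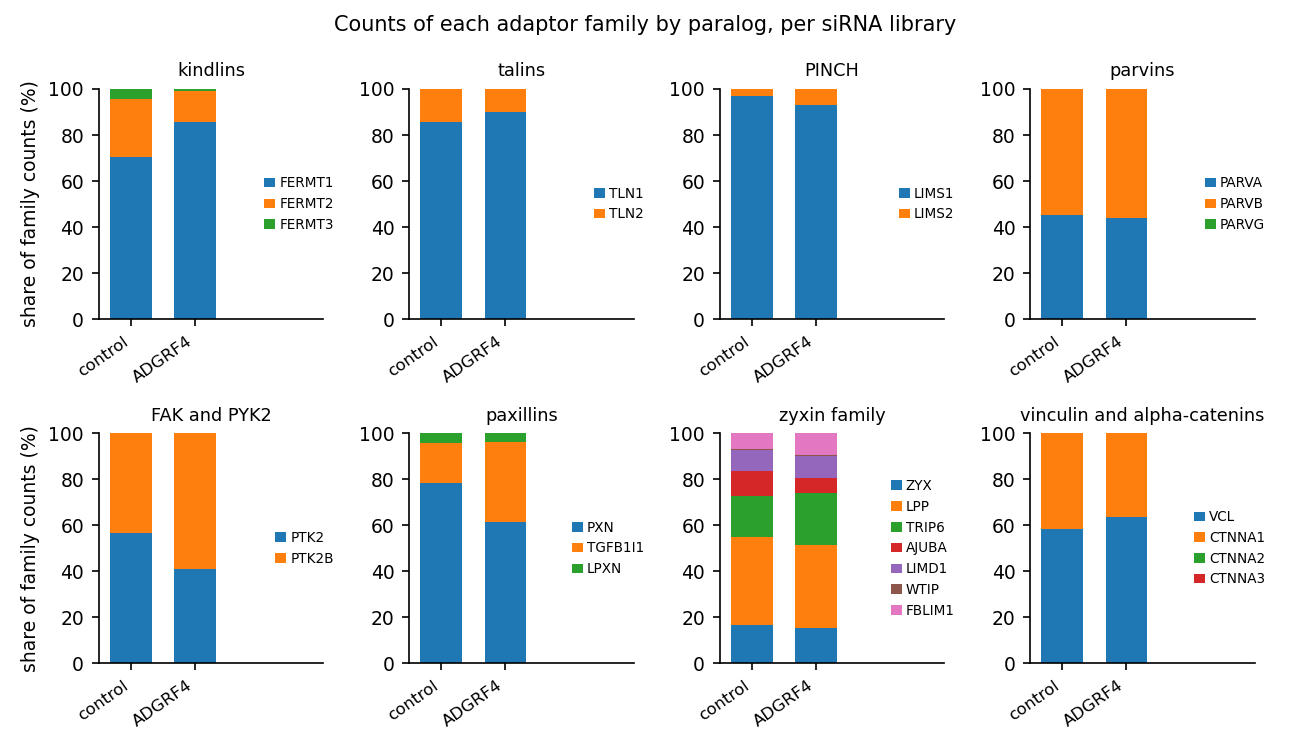
Share of each paralog in the counts of its family (%), with 1 bar per siRNA library and the adaptor gene or genes followed here at the bottom of each bar. The share of PTK2 goes from 56.4% to 41.1%, that of PXN from 78.4% to 61.6% and that of FERMT2 from 25.6% to 13.4%, while parvins and the share of ZYX (16.6% and 15.5%) are nearly level.

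Of the 10 genes, zyxin was moved most by centring on base composition. ZYX had 589 against 424 counts, 53.8 and 45.4 CPM, and was 1.18-fold lower (1.04 to 1.34). Its 3' end has 61.0% GC, and of the 575 symbols in that GC class 66.6% were at least 1.5-fold higher and 3.13% at least 1.5-fold lower. ZYX lay above 5.74% of them, with a centred log2 ratio of -1.08. EPHA1 overlaps its last exon on the other strand and had 6 counts and 1 count. Within the zyxin family the share of ZYX was 16.6% (15.4 to 17.9) and 15.5% (14.2 to 17.0). Of its relatives, AJUBA had 383 against 184 counts and was 1.77-fold lower (1.48 to 2.13), LPP was 1.17-fold lower (1.07 to 1.27) and migfilin (FBLIM1) 1.30-fold higher (1.09 to 1.56). The centred log2 ratios of AJUBA, LPP and FBLIM1 were -0.65, 0.13 and 0.27, so the sign of LPP turned. TRIP6 and LIMD1 had intervals that include 1, and WTIP had 18 against 5 counts.

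**Figure D4:**
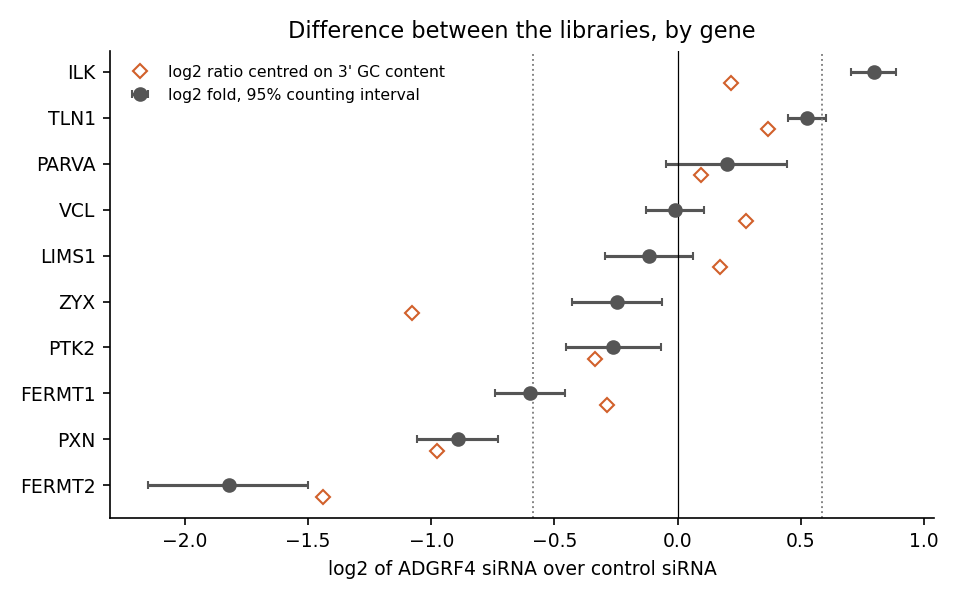
Log2 fold of scaled CPM (ADGRF4 siRNA over control siRNA) of each adaptor gene with its exact 95% counting interval (black), and the log2 ratio with 1 CPM added after centring on 3' GC content (open orange diamonds); dotted lines mark 1.5-fold. FERMT2 and PXN lie beyond the line by both measures, FERMT1 and ILK by the uncentred one, and ZYX by the centred one.

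Across the other genes of the 4 adhesion axes, 46 were compared and 12 of them exceeded 1.5-fold on the higher side, 10 on the lower side and 24 on neither, with a median log2 ratio of 0.15, beside 21.1% and 22.3% of all symbols. Next to kindlin and ILK, 1 of 4 was lower (FERMT3) and 0 were higher. RSU1, which binds PINCH, was 1.20-fold lower (1.04 to 1.38), and its sign turned on centring (0.067 on the log2 scale). Next to talin and vinculin, 3 of 8 were lower and 1 higher. TNS2 and TNS3, tensins that bind integrin tails and actin, were lower by 3.34-fold (2.71 to 4.15) and by 2.01-fold (1.73 to 2.35), and KANK1, which binds talin, was 1.76-fold lower (1.14 to 2.77), or -0.38 on the log2 scale after centring, which ends its call. SORBS3, which encodes the vinculin partner vinexin, was 2.11-fold higher (1.81 to 2.47), or 0.47 on the log2 scale after centring.

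Next to focal adhesion kinase and paxillin, 4 of 14 genes were higher and 1 lower, beside 21.1% and 22.3% of all compared symbols. The kinase SRC was 1.62-fold higher (1.46 to 1.81), the pseudokinase PEAK1 1.71-fold higher (1.45 to 2.03), and GIT1, a paxillin-binding scaffold, 2.11-fold higher (1.86 to 2.39), beside PTK2B; LPXN was the lower one. The centred log2 ratios were 0.61 for SRC, 0.93 for PEAK1 and 0.22 for GIT1, so centring ended the calls of GIT1, PTK2B and LPXN. It brought CRKL (0.84), GIT2 (0.62) and BCAR1 (-1.20), named here after their values were seen, past the limit. The counts were thus also 4 higher and 1 lower after centring, beside 15.1% and 19.2% of all centred symbols. Next to zyxin, 7 of 20 were higher and 5 lower, beside the same 21.1% and 22.3%. After centring 5 were higher and 4 lower, beside the same 15.1% and 19.2%. VASP, an actin elongation factor that zyxin binds, had 1294 against 330 counts and was 3.34-fold lower (2.96 to 3.78), and LASP1, another partner of zyxin, was 3.23-fold lower (3.05 to 3.42). FHL2, a LIM-only protein, and EVL, a relative of VASP, were 2.49-fold higher (2.11 to 2.93) and 2.43-fold higher (2.15 to 2.75). VASP and EVL thus differed in opposite directions, and the centred log2 ratios kept these signs at -1.81 and 0.93.

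**Figure D5:**
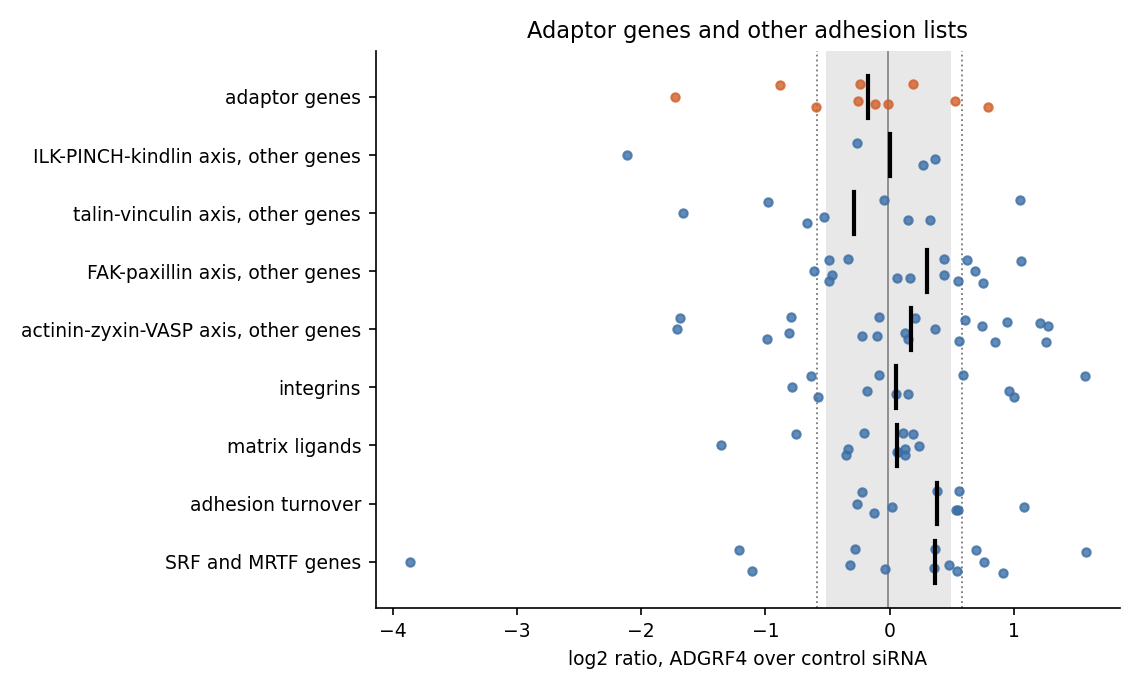
Log2 ratio (ADGRF4 siRNA over control siRNA, 1 CPM added) of each compared gene in the adaptor list (orange) and the other adhesion lists (blue), with list medians as black bars; the grey band spans the 25th to 75th percentile of all compared symbols and dotted lines mark 1.5-fold. The adaptor median is -0.18, and the adaptor genes reach from -1.73 (FERMT2) to 0.79 (ILK).

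Of the integrins that these adaptors bind, 11 of 20 were compared, with 4 at least 1.5-fold higher and 2 lower, beside 21.1% and 22.3% of all symbols. After centring 2 were higher and 0 lower, beside 15.1% and 19.2% of all centred symbols. ITGA5, the fibronectin receptor chain, was 3.14-fold higher (2.57 to 3.85), ITGA3 2.02-fold and ITGB4 1.96-fold higher, and ITGA6, a laminin receptor chain, 1.79-fold lower (1.40 to 2.30). ITGAV, named here after its values were seen, was 1.52-fold higher (1.35 to 1.71). ITGA5 and ITGAV stayed past the limit after centring, at 1.00 and 0.88 on the log2 scale, whereas ITGA3 (0.29), ITGB4 (0.25) and ITGA6 (-0.48) did not. ITGB1, the common beta chain and a kindlin and talin ligand, named here after its values were seen, had 7797 against 4455 counts and was 1.49-fold lower (1.44 to 1.55). The centred log2 ratio of ITGB1 was -0.30. Matrix ligands gave 0 higher and 2 lower among 12, beside the same 21.1% and 22.3% of all symbols. Centring gave 0 and 3, beside 15.1% and 19.2% of all centred symbols. LAMB3 was 2.68-fold lower (2.18 to 3.30) and LAMA5 1.69-fold lower (1.56 to 1.83). LAMB1 and COL4A2 were 1.26-fold and 1.28-fold lower, with centred log2 ratios of -0.050 and -0.45.

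Genes of adhesion turnover gave 1 higher and 0 lower among 9, beside 21.1% and 22.3% of all symbols. After centring they gave 2 higher and 1 lower, beside 15.1% and 19.2% of all centred symbols. CAPNS1, the small subunit of the calpains that cut talin, was 2.12-fold higher (2.07 to 2.18), with a 3' GC content of 61.3% and a centred value of 0.25. The phosphatases PTPN1 and PTPRA and the dynamin DNM2 lay at 1.48-fold, 1.48-fold and 1.45-fold, short of the limit, and their centred log2 ratios were 0.74, 0.058 and -0.30. The median of the list was 0.38 before and 0.087 after centring. Among serum response factor and MRTF genes, a set that includes known targets of actin signalling, 4 of 14 were higher and 3 lower. Before centring these counts lie near the 21.1% and 22.3% of all symbols. They were also 4 and 3 after centring, beside 15.1% and 19.2% of all centred symbols. SRF itself had 1760 against 641 counts and was 2.34-fold lower (2.14 to 2.57), CYR61 and CTGF, matricellular integrin ligands, were lower by 18.6-fold (13.0 to 27.7) and by 2.18-fold (1.98 to 2.398), and CNN2, a calponin, was 3.01-fold higher (2.83 to 3.19). VCL, a known serum response factor target, was level between these libraries.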

How the data were processed

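For each of 2 libraries, whole-number counts for gene symbols, not normalized, were deposited by the authors. Bowtie2, edgeR and hg19 are named in the submitters' processing notes; the sources used here do not give their roles, the annotation, the strand setting or the handling of multi-mapped reads. Rows that repeat a symbol were summed (286 symbols; none of the 10 genes). Libraries were scaled by TMM in edgeR 4.0.16 (R 4.3.3), log2 ratios took 1 CPM as pseudocount, and symbols whose mean count reached 30 were compared. Folds are ratios of scaled CPM with Clopper-Pearson intervals, shares have exact binomial intervals, and ratios of ratios have exact conditional intervals (scipy 1.17.1). Reads carry no molecular identifiers, so intervals understate the error.

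The 3' GC content came from GENCODE 29 (GRCh38), matched for 97.9% of compared symbols, in 20 classes. The calculation was tested on simulated counts. The genes, lists and tests were chosen with earlier results of these data known. Named genes are the 10 genes, their paralogs and up to 4 compared genes per list with the largest absolute log2 ratio. Some further genes are marked as named after their values were seen. Alternatives were total-count, upper-quartile and DESeq2 1.42.0 scaling, pseudocounts of 0.1 and 5 CPM, other count limits, GC centring and keeping 1 row per symbol.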

Additional observations from a re-analysis of the deposited data

How the results depend on the processing

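FERMT2 and PXN stayed at least 1.5-fold lower under each of the 7 alternatives run for single genes, the call of FERMT1 ended with a pseudocount of 5 CPM and after GC centring, and ILK lost and ZYX gained a call after centring. After centring, the number of genes at least 1.5-fold higher was 0 instead of 1. The number at least 2-fold lower was 2 instead of 1 after centring (FERMT2 and ZYX) and with total-count scaling (FERMT2 and PXN). The adaptor list's median log2 ratio moved by no more than its counting range under any alternative. DESeq2 and upper-quartile scaling, both pseudocounts and keeping 1 row per symbol left all 10 ratios within their counting intervals, whereas total-count scaling took 4 and centring took 6 of 10 outside. The annotated 3' ends of a gene differ in GC content, and an alternative added after the data were seen centred each ratio at the lowest and highest value among its coding transcripts. It gave -0.98 and -1.72 for PXN, past the limit at both ends, against -0.29 and -0.92 for FERMT1, 0.03 and -0.74 for PTK2, and 0.22 and -0.60 for LIMS1, so for the last 3 genes the centred call depends on which end was read, which was not tested. No paired analysis was possible because each group holds 1 library. Balances against the single most counted paralog kept the direction of those against all paralogs.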
